A study of Homo sapiens with 8 samples.

Results

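The genes described here are the 10 genes of the MHC class II pathway CIITA, CD74, HLA-DMA, HLA-DMB, HLA-DRA, HLA-DRB1, HLA-DPA1, HLA-DPB1, HLA-DQA1 and HLA-DQB1. They were taken by symbol from a deposited count table of 57169 genes, and all 10 were present. RNA was sequenced from 4 groups of 2 libraries each: SW620 cells treated with AFZC, SW620 cells treated with 5-FU, HCT116 cells treated with AFZC and HCT116 cells treated with 5-FU. Both are human colorectal carcinoma lines, SW620 from a lymph node metastasis and HCT116 from a primary tumour. Treatment lasted 24 hours at the IC50 of each agent, per the design text. 5-FU (5-fluorouracil) is a thymidylate synthase inhibitor. The labels do not spell out the code AFZC. The series title speaks of 5-fluorouracil carried in a metal-organic framework with an aptamer on it. Untreated cells were not analysed here, so each difference sets AFZC against 5-FU and not against a resting level, and every group had received a drug. Each line is a single cell line, so lines are not replicates of a tumour type. Total counts ran from 31991561 to 40590291 per library.

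MHC class II molecules are pairs of an alpha and a beta chain (HLA-DR, HLA-DP and HLA-DQ) that carry peptides from endosomes to the cell surface, where CD4+ T cells read them. CIITA is the coactivator on which their transcription depends; it does not bind DNA itself but docks on RFX, CREB and NF-Y proteins that sit on the X and Y boxes of class II promoters. CD74, the invariant chain, occupies the groove of newly made class II molecules, and HLA-DM exchanges its remnant for antigenic peptide. Professional antigen presenting cells make these genes all the time, whereas epithelial and carcinoma cells mostly make them after interferon gamma induces CIITA.

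The promoters that carry the X-box-like sequence are shown first, because this is the feature through which CIITA acts and because the selection of the genes did not use it. RefSeq promoter windows on GRCh38.p14, from 250 bases before to 50 after a gene's start, were matched to 8 of the 10 genes and held 9 promoters, since HLA-DPA1 has 2. CIITA and HLA-DRA were not matched. Each line below gives 90 bases of 1 promoter, 5′ to 3′ on the minus strand, with matches to an X-box-like motif (CNAG, any 2 bases, AC, any 3 bases and TG) and to ATTGG or its reverse complement CCAAT (the NF-Y site of the Y box) in capitals.
CD74, chr5:150412914-150413003: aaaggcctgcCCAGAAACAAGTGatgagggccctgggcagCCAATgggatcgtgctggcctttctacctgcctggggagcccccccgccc
HLA-DRB1, chr6:32589850-32589939: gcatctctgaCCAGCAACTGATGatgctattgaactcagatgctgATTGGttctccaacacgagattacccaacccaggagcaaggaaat
HLA-DMA, chr6:32953133-32953222: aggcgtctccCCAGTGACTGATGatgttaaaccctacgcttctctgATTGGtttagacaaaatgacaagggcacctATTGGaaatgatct
HLA-DMB, chr6:32941039-32941128: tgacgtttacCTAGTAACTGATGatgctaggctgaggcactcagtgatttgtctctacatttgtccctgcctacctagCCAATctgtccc
HLA-DQB1, chr6:32666701-32666790: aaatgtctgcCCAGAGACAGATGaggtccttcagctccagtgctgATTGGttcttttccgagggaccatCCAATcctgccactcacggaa

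Both strands were searched in all windows. The X-box-like letters were in 5 of the 9 class II promoters and in 2.96% of 35116 promoters in the RefSeq table. The windows of HLA-DPA1, HLA-DPB1 and HLA-DQA1 had no match. The search used fixed letters in windows of fixed length, so a window without a match does not show that the gene lacks an X box. ATTGG was in 7 of the 9 and in 34.6% of all promoters. The 2 motifs in the order of the class II module, with 10 to 30 bases between them on 1 strand, were in the promoters of HLA-DRB1 (22 bases between), HLA-DMA (23 bases) and HLA-DQB1 (22 bases), against 17 promoters, or 0.0484%, in the whole table. The letters of the X-box-like motif were chosen after class II promoters had been read, so these counts describe the windows and are no test. The genes that share the module did not share an expression pattern: HLA-DRB1 was lower in SW620 than in HCT116 cells, HLA-DQB1 was higher, and HLA-DMA was detected in all 8 libraries of both lines, as the values below show.

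The 10 genes were chosen with the results of these comparisons known, so their levels and changes are given as a description, without a test. Levels are in CPM (counts per 1000000 counts), scaled with TMM factors, which correct for library composition. Fold changes of the treatments are AFZC over 5-FU, on the log2 scale with a standard error from edgeR's quasi-likelihood model. In bulk RNA, fewer cells that make a gene and less RNA per cell cannot be told apart. In SW620 cells 7 of the 10 genes were higher in both AFZC libraries than in both 5-FU libraries and 0 were lower in both; 31.5% and 28.4% of the 21378 genes tested lay apart in these ways. In HCT116 cells 1 gene was higher and 2 were lower in both AFZC libraries, against 28.1% and 27.4% of genes tested.

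**Figure D1:**
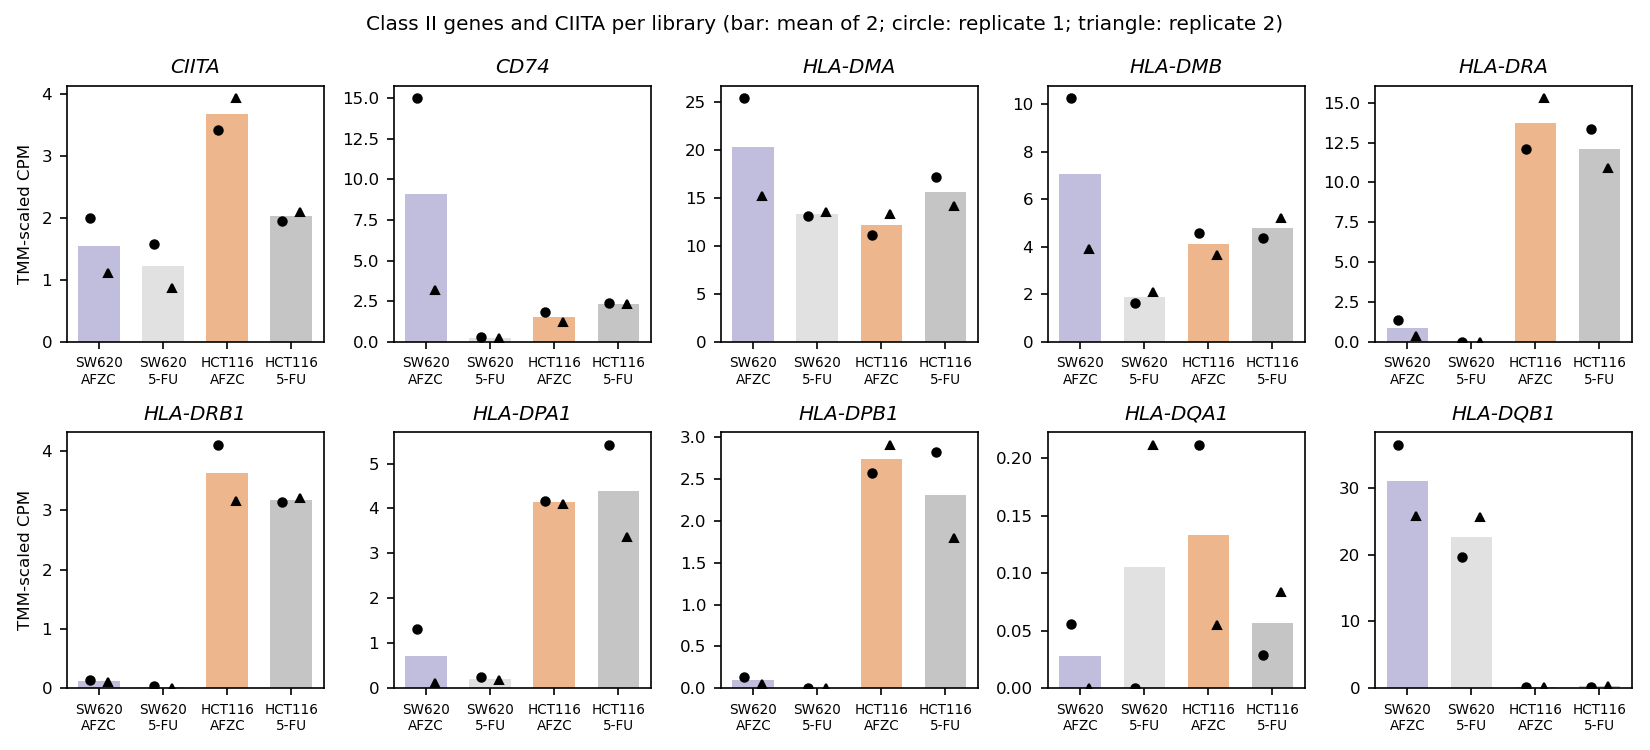
Level of each of the 10 genes in TMM-scaled CPM (vertical axes, each with its own scale from 0) in the 4 groups; bars are means of 2 libraries, circles replicate 1 and triangles replicate 2. CD74 stands at 15.0 and 3.21 CPM in SW620 cells under AFZC against 0.275 and 0.211 CPM under 5-FU. The chains of HLA-DR and HLA-DP are lower in SW620 than in HCT116 cells, with HLA-DQB1 the other way round. In replicate 1 of SW620 under AFZC HLA-DRA stands at 1.38 and HLA-DPA1 at 1.32 CPM.

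CIITA, the coactivator (chr16:10866222-10943021, plus strand, GRCh38), was present in every library at a low level. In SW620 cells it had 2.00 and 1.12 CPM under AFZC and 1.58 and 0.876 CPM under 5-FU. In HCT116 cells it had 3.42 and 3.94 CPM under AFZC and 1.96 and 2.11 CPM under 5-FU. The treatments overlapped in SW620 cells, where the log2 fold change was 0.35 ± 0.440 (SE) and became -0.13 without replicate 1 of SW620 under AFZC. They lay apart in HCT116 cells, with a log2 fold change of 0.85 ± 0.418 and a ratio of pooled counts of 1.81 (95% exact binomial interval 1.47 to 2.23). CIITA was lower in SW620 than in HCT116 cells under both drugs, with no overlap between the lines. The libraries did not keep the strand, and 11.6% of the exon bases of CIITA lie within exons of DEXI on the other strand, so the counts of these genes may be shared. Here and below, counting intervals cover counting error only and leave out the spread between the 2 libraries of a group. They are too narrow even for counting error, since mates of 1 fragment appear to have been counted separately.

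CD74, the invariant chain (chr5:150401637-150412929, minus strand), differed most between the treatments in SW620 cells among genes of the set with counts in all 4 groups. It had 15.0 and 3.21 CPM in SW620 cells under AFZC, from 533 and 115 counts. Under 5-FU it had 0.275 and 0.211 CPM, from 8 and 7 counts. The ratio of pooled counts was 37.6 (95% exact binomial interval 22.6 to 67.6) and the log2 fold change 5.21 ± 0.725. Both AFZC libraries lay above both 5-FU libraries, but they were 4.68-fold apart from each other, and without replicate 1 the log2 fold change was 3.72. In HCT116 cells CD74 had 1.86 and 1.25 CPM under AFZC and 2.36 and 2.30 CPM under 5-FU, a log2 fold change of -0.59 ± 0.582, with both AFZC libraries below both 5-FU libraries. The line with the higher CD74 level changed with the drug: SW620 over HCT116 was a ratio of 5.83 (4.77 to 7.17) under AFZC and 0.103 (0.0566 to 0.176) under 5-FU.

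HLA-DMA and HLA-DMB encode the chains of HLA-DM, the peptide exchange factor, and lie beside each other on chromosome 6 (chr6:32948613-32969094 and chr6:32934629-32941070, both minus strand). HLA-DMB had 10.2 and 3.91 CPM in SW620 cells under AFZC and 1.65 and 2.08 CPM under 5-FU. Its log2 fold change was 1.92 ± 0.428 and fell to 1.07 without replicate 1 of SW620 under AFZC. In HCT116 cells it had 4.56 and 3.63 CPM under AFZC and 4.35 and 5.19 CPM under 5-FU, and the treatments overlapped. HLA-DMA had 25.4 and 15.2 CPM in SW620 cells under AFZC and 13.1 and 13.6 CPM under 5-FU, with no overlap and a log2 fold change of 0.61 ± 0.255, or 0.19 without replicate 1 of SW620 under AFZC. In HCT116 cells it had 11.1 and 13.4 CPM under AFZC and 17.2 and 14.2 CPM under 5-FU, again without overlap but in the other direction, with a log2 fold change of -0.36 ± 0.255. Of the exon bases of HLA-DMA 2.17% are shared with BRD2 on the other strand, a gene with 5826 to 10518 counts.

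HLA-DRA, the alpha chain of HLA-DR (chr6:32439842-32445046, plus strand), had reads in SW620 cells only under AFZC. It had 49 and 14 counts under AFZC, or 1.38 and 0.391 CPM, and 0 and 0 counts under 5-FU. Against a floor of 3 counts over the group, which equals 0.0483 CPM, it was at least 18.3-fold higher under AFZC. Such bounds, here and below, leave out the counting error of the group that has counts. In HCT116 cells it was among the more abundant genes of the set, with 12.1 and 15.3 CPM under AFZC and 13.3 and 10.9 CPM under 5-FU, a log2 fold change of 0.18 ± 0.394 with overlap. Compared with HCT116 cells, HLA-DRA in SW620 cells was at least 251-fold lower under 5-FU and had a ratio of 0.0646 (0.0493 to 0.0834) under AFZC. The AFZC libraries of SW620 lay far below both HCT116 groups.

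HLA-DRB1, the beta chain of HLA-DR (chr6:32578769-32589848, minus strand), had 5 and 4 counts in SW620 cells under AFZC and 1 and 0 counts under 5-FU. The ratio of pooled counts was 7.84 with an interval of 1.09 to 344, so its size is barely determined at this depth. In HCT116 cells HLA-DRB1 had 4.11 and 3.16 CPM under AFZC and 3.14 and 3.20 CPM under 5-FU, a log2 fold change of 0.20 ± 0.401 with overlap. The HLA-DRB genes are near-identical and highly polymorphic, and reads shared between copies may be split or lost, so the level of HLA-DRB1 is uncertain. Its copies HLA-DRB5 and HLA-DRB6 had 0 counts in all 4 SW620 libraries and 0 to 9 counts in HCT116 libraries.

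HLA-DPA1 and HLA-DPB1, the chains of HLA-DP, overlap head to head (chr6:33064569-33080775, minus strand, and chr6:33075926-33087201, plus strand) and share 96 exon bases. HLA-DPA1 had 47 and 4 counts in SW620 cells under AFZC, or 1.32 and 0.112 CPM, and 7 and 6 counts under 5-FU, or 0.241 and 0.181 CPM. Replicate 1 under AFZC stood above both 5-FU libraries and replicate 2 below both. The log2 fold change of 1.75 ± 0.869 came from that library: without it the value was -0.88. HLA-DPB1 had 5 and 2 counts in SW620 cells under AFZC and 0 and 0 under 5-FU. Against the floor it was at least 2.03-fold higher under AFZC, but with so few AFZC counts the true ratio may be smaller. In HCT116 cells HLA-DPA1 had 4.16 and 4.11 CPM under AFZC and 5.42 and 3.37 CPM under 5-FU, while HLA-DPB1 had 2.57 and 2.91 CPM under AFZC and 2.82 and 1.80 CPM under 5-FU. Both overlapped between treatments, with log2 fold changes of -0.09 ± 0.630 and 0.25 ± 0.457.

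HLA-DQB1, the beta chain of HLA-DQ (chr6:32659467-32668383, minus strand), had the opposite distribution between the lines. It had 36.5 and 25.7 CPM in SW620 cells under AFZC and 19.7 and 25.6 CPM under 5-FU. In HCT116 cells it had 0.265 and 0.250 CPM under AFZC and 0.144 and 0.421 CPM under 5-FU. The ratio of SW620 over HCT116 was 121 (77.1 to 201) under AFZC and 80.3 (51.8 to 132) under 5-FU. Between the treatments the SW620 libraries barely lay apart, with a log2 fold change of 0.46 ± 0.277, and the HCT116 libraries overlapped, with -0.14 ± 0.534. The gene for its partner, HLA-DQA1 (chr6:32628179-32647062, plus strand), was near 0 in every library, with 2 and 0 counts in SW620 cells under AFZC, 0 and 7 under 5-FU, 8 and 2 in HCT116 cells under AFZC and 1 and 3 under 5-FU. It was the only gene of the set that did not pass the filter on low counts. HLA-DQA1 and HLA-DQB1 are highly polymorphic and have close copies, and reads of an allele that diverges from the reference may not align, so their levels are uncertain and a low count does not show that the gene is silent. The antisense gene HLA-DQB1-AS1 shares 4.91% of the exon bases of HLA-DQB1 and had 2 to 17 counts in SW620 libraries.

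**Figure D2:**
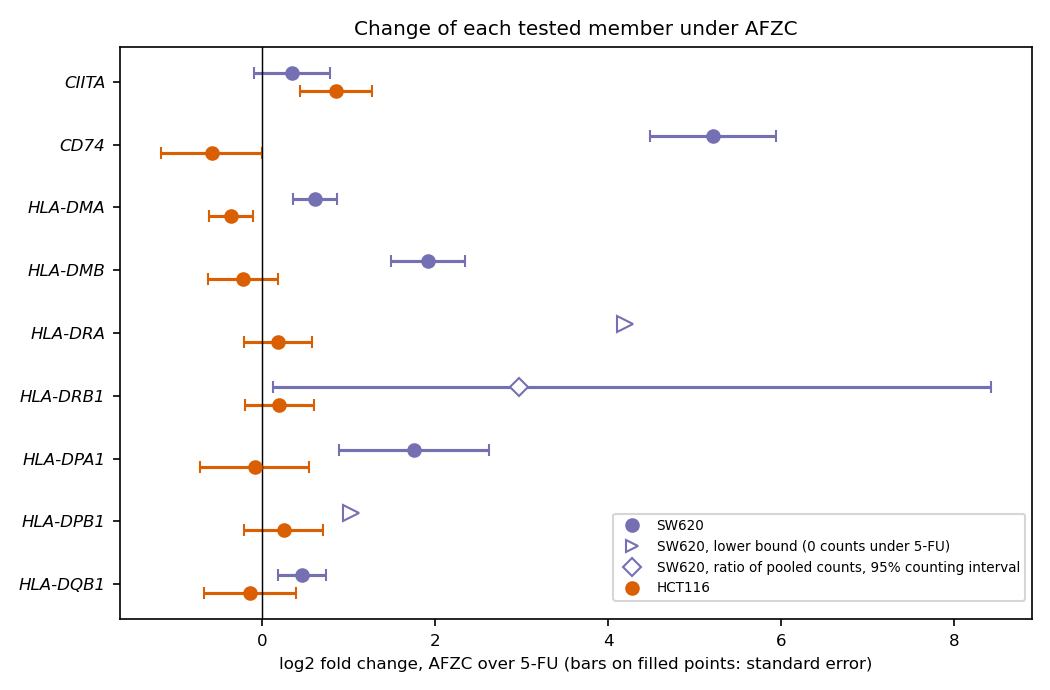
Log2 fold change of AFZC over 5-FU (horizontal axis) for the 9 genes that passed the filter, with SW620 above HCT116 for each gene. Filled circles are fitted values with their standard errors, triangles are lower bounds for genes with 0 counts in SW620 cells under 5-FU, and the diamond is the pooled ratio of HLA-DRB1 with its 95% counting interval. HCT116 values lie between -0.59 and 0.85, and CD74 in SW620 lies at 5.21.

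Across the set, SW620 values were above 0 for all 9 genes that passed the filter, with a median log2 fold change of 1.92, or 1.75 with HLA-DRA and HLA-DPB1 at their bounds, beside 0.03 over all genes tested. The HCT116 median was -0.09 beside 0. At an adjusted p under 0.05 by edgeR's quasi-likelihood test with Benjamini-Hochberg adjustment over all genes, 3 of the 9 (CD74, HLA-DRA and HLA-DMB) were past the threshold upward in SW620 cells and 0 downward, where 11.6% and 6.95% of all genes tested were past it. In HCT116 cells 0 were past it in either direction, beside 5.87% and 3.74% of genes, and 0 were under an unadjusted p of 0.05; DESeq2 also gave 0. The same 3 genes were past the threshold upward, and 0 downward, in the difference between the lines' treatment effects, beside 5.65% and 4.14% of genes tested. The genes were chosen from these contrasts, so nothing is read from these counts. Without TMM factors the median of all genes in SW620 cells moved by 0.38 on the log2 scale, the number of genes higher and lower became 5141 and 445 in place of 2482 and 1486, and 7 of the 9 class II genes were past the threshold. In the difference between the lines the split became 2455 and 430 in place of 1207 and 884.

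Between the 2 SW620 libraries under AFZC, all 10 genes were higher in replicate 1 than in replicate 2. This held for 4 of 10 in SW620 cells under 5-FU, 6 of 10 in HCT116 cells under AFZC and 5 of 10 in HCT116 cells under 5-FU. The share of all genes higher in replicate 1 was not counted, so these counts do not set the class II genes apart. HLA-DRB1 (5 and 4 counts), HLA-DPB1 (5 and 2) and HLA-DQA1 (2 and 0) had too few counts in SW620 cells under AFZC to give a direction. The ratio of replicate 1 over replicate 2 was 11.9 for HLA-DPA1, 4.68 for CD74, 3.53 for HLA-DRA, 2.62 for HLA-DMB, 2.52 for HLA-DPB1, 1.79 for CIITA, 1.67 for HLA-DMA, 1.42 for HLA-DQB1 and 1.26 for HLA-DRB1. The level of CD74 in SW620 cells under AFZC, 9.11 ± 8.34 CPM (SD, n = 2), thus rests mostly on 1 library, while the direction against 5-FU was the same in both. Whether the 2 libraries come from separate cultures is not stated by the labels, so this spread, and the spread behind every p-value here, may be technical. Without replicate 1 of SW620 under AFZC, the log2 fold change in SW620 cells was 3.72 for CD74, 1.07 for HLA-DMB, -0.88 for HLA-DPA1 and -0.13 for CIITA. Without replicate 2 the values of these genes were 5.93, 2.45, 2.64 and 0.71.

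Between genes, levels are compared per kilobase of exon. In SW620 cells under AFZC the order was HLA-DMA with 8.02 ± 2.86 CPM per kb, HLA-DQB1 with 6.34 ± 1.55, CD74 with 2.86 ± 2.62, HLA-DMB with 1.52 ± 0.963 and HLA-DRA with 0.691 ± 0.546 (SD, n = 2 each), and these neighbours overlapped within their spread. The other 5 genes were at or below 0.125 CPM per kb. In SW620 cells under 5-FU HLA-DMA with 5.27 ± 0.133 and HLA-DQB1 with 4.62 ± 0.850 CPM per kb came first, and no other gene was above 0.401. In HCT116 cells under AFZC HLA-DRA came first with 10.7 ± 1.75 CPM per kb, then HLA-DMA with 4.83 ± 0.632 and HLA-DRB1 with 2.96 ± 0.544. Under 5-FU the same 3 genes led, with 9.47 ± 1.35, 6.19 ± 0.830 and 2.58 ± 0.0338 CPM per kb. Both lines thus held RNA of the HLA-DM chains. HLA-DMB had 0.880 and 1.03 CPM per kb in HCT116 cells under AFZC and 5-FU, against 1.52 and 0.401 in SW620 cells. HCT116 cells also held RNA of both HLA-DR chains and both HLA-DP chains, and SW620 cells that of the HLA-DQ beta chain. CD74 and HLA-DRA were at 2.86 and 0.691 CPM per kb in SW620 cells under AFZC against 0.0765 and 0 under 5-FU.

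Between the lines, SW620 over HCT116, the contrasts fell apart by gene. Under AFZC, 3 of the 10 genes (CD74, HLA-DMA and HLA-DQB1) were higher in both SW620 libraries and 5 (CIITA, HLA-DRA, HLA-DRB1, HLA-DPA1 and HLA-DPB1) lower, where 37.2% and 37.2% of genes tested lay apart in these directions. Under 5-FU, 1 gene (HLA-DQB1) was higher and 8 were lower, where 39.0% and 41.0% of genes tested did so; HLA-DQA1 overlapped. At an adjusted p under 0.05, 3 of 9 were past the threshold upward and 5 downward under AFZC, beside 25.1% and 24.2% of genes. Under 5-FU 1 was past it upward and 6 downward, beside 26.5% and 28.2% of genes; without TMM factors the genes called in that contrast were 4267 upward and 7714 downward in place of 5675 and 6030. Nothing is read from these shares either. HLA-DOA, named after its values were seen, codes for a chain of the HLA-DM inhibitor HLA-DO. Like HLA-DRA, it was lower in SW620 than in HCT116 cells under both drugs, but its treatment groups in SW620 cells overlapped: 6 and 0 counts in SW620 cells under AFZC, 0 and 0 under 5-FU, 409 and 252 in HCT116 cells under AFZC and 283 and 383 under 5-FU.

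**Figure D3:**
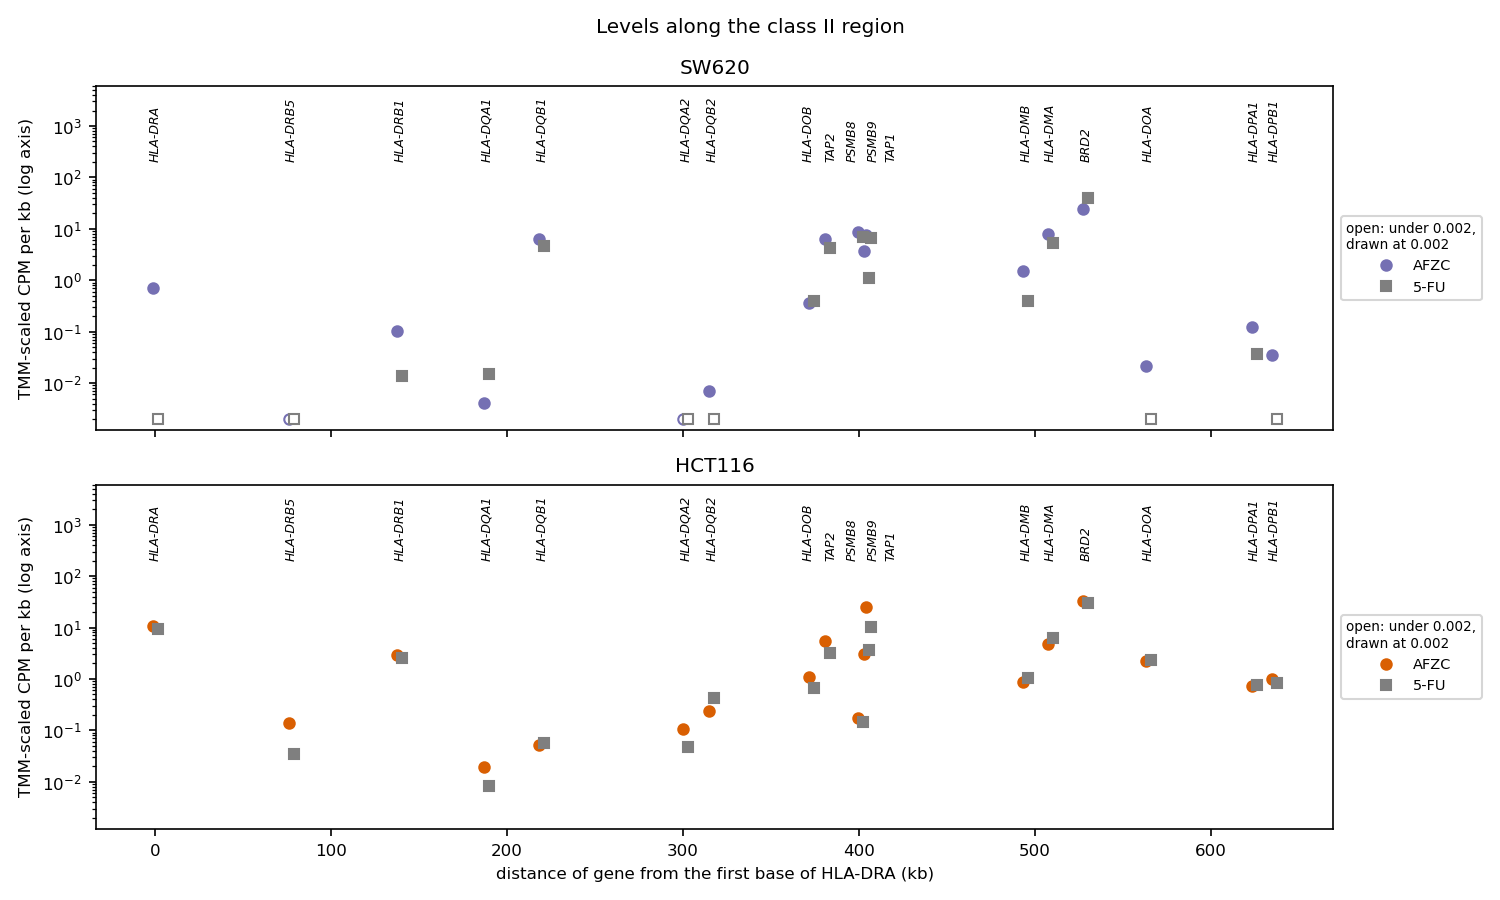
Mean TMM-scaled CPM per kb of exon (vertical log axis) of genes along the class II region, by distance from the first base of HLA-DRA in kb, for SW620 (top) and HCT116 (bottom) under AFZC (circles) and 5-FU (squares); open symbols stand for means under 0.002. HLA-DRA, HLA-DRB1, HLA-DOA, HLA-DPA1 and HLA-DPB1 are lower in SW620 than in HCT116 cells, HLA-DQB1 is higher, and TAP1, TAP2, HLA-DMA and BRD2 lie above 3 CPM per kb in all 4 groups.

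The promoter partners of CIITA are encoded by 7 enhanceosome genes, for the RFX, CREB and NF-Y proteins. In SW620 cells 0 of the 7 rose and 1 fell, where 11.6% of all genes tested rose and 6.95% fell, with a median log2 fold change of 0.12. With library totals in place of TMM factors, 3 rose and 0 fell, where 5141 of all 21378 genes tested rose and 445 fell. NFYA, a subunit of NF-Y, had a log2 fold change of -0.63 ± 0.196 (adjusted p = 0.0398), a call lost when any 1 of several libraries was left out. RFX5 had 0.22 ± 0.165, RFXANK 0.31 ± 0.198 and RFXAP 0.59 ± 0.302, and none of the 3 subunits of RFX passed the test. In HCT116 cells 2 of the 7 rose and 1 fell, where 5.87% of all genes tested rose and 3.74% fell, with a median of -0.03. RFX5 had 82.5 and 100.4 CPM under AFZC and 52.8 and 59.4 CPM under 5-FU, a log2 fold change of 0.70 ± 0.165 (adjusted p = 0.0183). RFXANK had 16.6 and 20.6 CPM under AFZC and 35.6 and 28.5 CPM under 5-FU, a log2 fold change of -0.79 ± 0.200 (adjusted p = 0.0265). NFYC, another NF-Y subunit, had 0.69 ± 0.189 (adjusted p = 0.0368). Each of these 3 calls in HCT116 cells was lost when 1 library was left out.

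Among 19 tested regulators of CIITA and genes of the interferon gamma pathway, 5 rose and 3 fell in SW620 cells, beside 11.6% and 6.95% of all genes tested, with a median log2 fold change of 0.27 beside 0.03 over all genes tested. The interferon-induced GTPase gene GBP2 had 46.8 and 19.4 CPM in SW620 cells under AFZC and 7.33 and 8.34 CPM under 5-FU, a log2 fold change of 2.08 ± 0.453 (adjusted p = 0.0110). Leaving out 1 SW620 library ended this call. The maintenance and de novo DNA methyltransferase genes DNMT1 and DNMT3B rose by 1.14 ± 0.167 and 1.23 ± 0.210 (adjusted p = 0.000665 and 0.00169), in both AFZC libraries above both 5-FU libraries. The receptor chain IFNGR2 fell to 46.5 and 63.5 CPM in SW620 cells under AFZC, against 91.0 and 92.7 CPM under 5-FU (log2 fold change -0.74 ± 0.175, adjusted p = 0.0116, lost when 1 SW620 library was left out). IFNGR1 (-0.05 ± 0.177), JAK2 (0.58 ± 0.229) and the CIITA-inducing factor IRF1 (-0.43 ± 0.236) did not pass the test. With library totals in place of TMM factors, 10 of the 19 rose and 0 fell in SW620 cells, where 5141 of all 21378 genes tested rose and 445 fell. With any 1 library left out, the log2 fold change in SW620 cells ranged from 1.31 to 2.58 for GBP2 and from -0.98 to -0.52 for IFNGR2. In HCT116 cells 2 of the 19 rose and 1 fell, beside 5.87% and 3.74% of all genes tested, with a median of 0.16: PRDM1, a repressor of CIITA in plasma cells, had 1.16 ± 0.308, DNMT3B 0.85 ± 0.208 and the signalling inhibitor SOCS3 -0.90 ± 0.198 (adjusted p = 0.0363, 0.0224 and 0.0141). These 3 calls were lost when 1 HCT116 library was left out. IRF1 in HCT116 cells had 0.44 ± 0.241 and did not pass.

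Of 12 tested genes that process antigen or belong to other class II loci, 2 rose and 1 fell in SW620 cells, beside 11.6% and 6.95% of all genes tested. In HCT116 cells 0 passed the test, beside 5.87% and 3.74% of all genes tested, and DESeq2 also called 0. There 0 of the 12 were under an unadjusted p of 0.05, but the share of all genes under it was not counted. With so few genes, nothing is read from these counts of 0. The median log2 fold change of these genes was 0.12 in SW620 cells and -0.0023 in HCT116 cells. CTSS, the cathepsin that cleaves the invariant chain in antigen presenting cells, had 8.39 and 10.5 CPM in SW620 cells under AFZC and 0.551 and 1.33 CPM under 5-FU. Its log2 fold change was 3.31 ± 0.479 (adjusted p = 0.000604), and its 2 AFZC libraries did not share the order of the class II genes, replicate 2 being the higher. CTSL, another cathepsin gene, had 1.04 ± 0.202 (adjusted p = 0.00378), and CTSD had -0.78 ± 0.216 (adjusted p = 0.0263). The call of CTSD was lost when 1 SW620 library was left out, and also with library totals in place of TMM factors. With library totals 3 of the 12 rose and 0 fell in SW620 cells, where 5141 of all 21378 genes tested rose and 445 fell. IFI30, the lysosomal thiol reductase, stayed at or below 0.663 CPM in all 8 libraries.

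Class I presentation was measured as a comparison, and 4 of 20 tested genes rose and 2 fell in SW620 cells, with a median log2 fold change of 0.17. Over all genes tested 11.6% rose and 6.95% fell, so the share of class I genes that fell was close to that of all genes. NLRC5, the relative of CIITA that serves class I genes, had 24.2 and 21.2 CPM under AFZC and 6.16 and 5.86 CPM under 5-FU, a log2 fold change of 1.92 ± 0.217 (adjusted p = 0.000104). The immunoproteasome subunit PSMB9 rose by 1.73 ± 0.318 (adjusted p = 0.00269). HLA-F had 0.72 ± 0.223 (adjusted p = 0.0408), a call that was lost when 1 library was left out. HLA-B had 0.20 ± 0.202 and the light chain B2M 0.30 ± 0.208, and neither passed. With library totals in place of TMM factors, 11 of the 20 rose and 0 fell, where 5141 of all 21378 genes tested rose and 445 fell. With any 1 library left out, the log2 fold change in SW620 cells ranged from 1.83 to 2.01 for NLRC5 and from 1.20 to 2.13 for PSMB9. In HCT116 cells 2 of 20 rose and 3 fell, beside 5.87% and 3.74% of all genes tested, with a median of -0.20. The peptide transporter gene TAP1 had 129 and 108 CPM under AFZC and 49.8 and 49.0 CPM under 5-FU, a log2 fold change of 1.27 ± 0.155 (adjusted p = 0.000503). TAP2 had 0.74 ± 0.173 (adjusted p = 0.0179). The call of TAP2 in HCT116 cells was lost when 1 HCT116 library was left out, while that of TAP1 was not. TAP1 lies inside the class II region, between the HLA-DQ and HLA-DM genes. NLRC5 in HCT116 cells had 0.59 ± 0.208 and did not pass.

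CD74 also acts as a surface receptor for MIF, with CD44 and chemokine receptors as partners. Of 4 tested genes of this group, 3 rose in SW620 cells, with a median log2 fold change of 1.89, and 1 in HCT116 cells, with a median of -0.0018, beside 11.6% and 5.87% of all genes tested. CD44 had 24.9 and 36.9 CPM in SW620 cells under AFZC and 5.06 and 10.2 CPM under 5-FU, a log2 fold change of 2.01 ± 0.287 (adjusted p = 0.000751). CXCR4 had 1.77 ± 0.556 (adjusted p = 0.0426, lost when 1 library was left out). CXCR2 had 6 and 10 counts in SW620 cells under AFZC and 0 and 0 under 5-FU, at least 4.64-fold higher, a call lost without replicate 2 of SW620 under 5-FU. In HCT116 cells CXCR2 had 100 and 88 counts under AFZC and 3 and 3 under 5-FU, a log2 fold change of 4.84 ± 0.666 (adjusted p = 0.00136). MIF, the ligand, did not pass in either line (-0.70 ± 0.510 in SW620 and -0.26 ± 0.529 in HCT116), and CD44 in HCT116 cells had -0.20 ± 0.264.

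**Figure D4:**
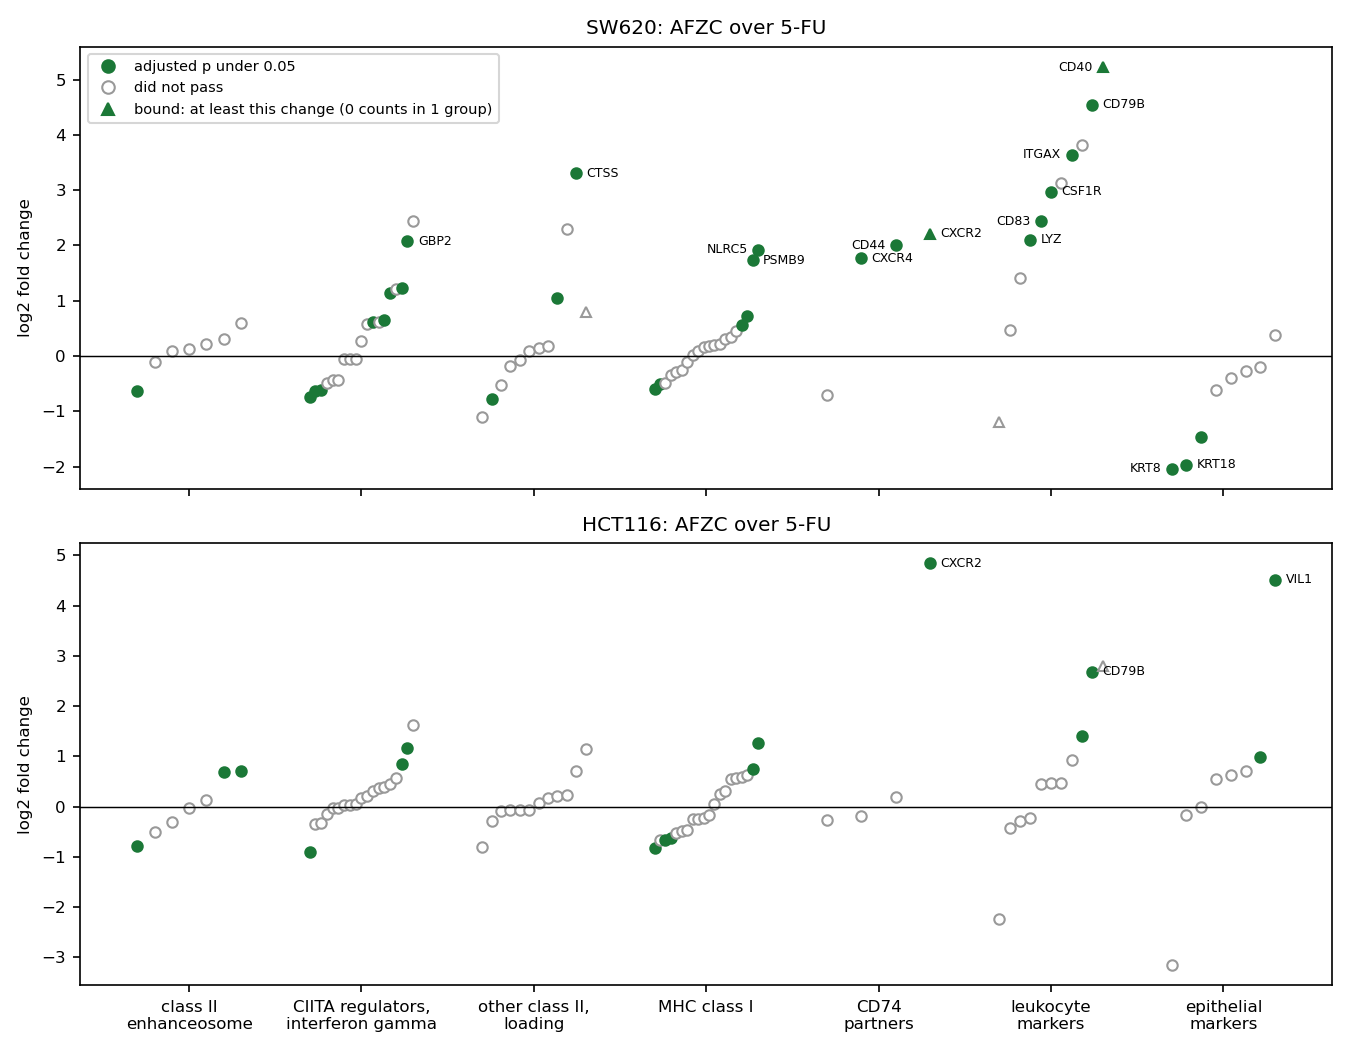
Log2 fold change of AFZC over 5-FU (vertical axes) for each tested gene of 7 gene lists, in SW620 (top) and HCT116 (bottom); filled symbols passed an adjusted p of 0.05, open ones did not, triangles are bounds for genes with 0 counts in 1 group, and names mark called genes past 1.5. In SW620 the leukocyte marker list has 6 rises, and KRT8 and KRT18 lie near -2.

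Markers of other cells were set beside these values. The 16 markers of leukocytes and antigen presenting cells summed to 87.1 and 60.3 CPM in SW620 cells under AFZC and 10.3 and 14.1 CPM under 5-FU, and to 74.7 and 54.6 CPM in HCT116 cells under AFZC and 57.9 and 49.1 CPM under 5-FU. Of the 11 tested, 6 rose and 0 fell in SW620 cells, with a median log2 fold change of 2.97, and 2 rose and 0 fell in HCT116 cells, with a median of 0.46. Over all genes tested 11.6% rose and 6.95% fell in SW620 cells, and 5.87% rose and 3.74% fell in HCT116 cells. The largest in SW620 cells were CD40 (103 and 26 counts under AFZC, 0 and 0 under 5-FU, at least 37.4-fold higher), CD79B (4.55 ± 0.868, adjusted p = 0.00364) and the integrin gene ITGAX (3.64 ± 0.306, adjusted p = 1.06e-05). In HCT116 cells ITGAX had 1.40 ± 0.273 and CD79B 2.68 ± 0.699 (adjusted p = 0.00772 and 0.0306), both lost when 1 HCT116 library was left out. PTPRC, the defining pan-leukocyte gene, had 0 to 2 counts in each of the 8 libraries. MS4A1, a B cell gene, had 0 counts in all 4 SW620 libraries, but 10 and 4 counts in HCT116 cells under AFZC against 0 and 0 under 5-FU. CD14, a monocyte gene, was low but higher in both AFZC libraries of SW620, with 35 and 17 counts under AFZC and 7 and 10 under 5-FU, while in HCT116 cells it had 6 and 10 counts under AFZC and 10 and 8 under 5-FU. With any 1 library left out, the log2 fold change in SW620 cells ranged from 3.13 to 5.25 for CD79B and from 3.52 to 3.78 for ITGAX. The part of these markers in the class II values was not tested beyond these counts.

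The 8 epithelial markers summed to 5502 and 5080 CPM in SW620 cells under AFZC and 15217 and 16590 CPM under 5-FU, and to 7946 and 4887 CPM in HCT116 cells under AFZC and 4328 and 3501 CPM under 5-FU. All 8 were tested; 3 fell in SW620 cells, with a median log2 fold change of -0.50, where 6.95% of all genes tested fell, and 2 rose in HCT116 cells, with a median of 0.58, where 5.87% rose. The keratin genes KRT8, KRT18 and KRT19 fell by 2.04 ± 0.265, 1.97 ± 0.248 and 1.46 ± 0.237 on the log2 scale in SW620 cells (adjusted p = 0.000279, 0.000221 and 0.00127). EPCAM, the epithelial adhesion molecule, was at 259 to 658 CPM in all libraries and did not pass in either line. The villin gene VIL1 had 1.96 and 0.777 CPM in HCT116 cells under AFZC and 0.115 and 0 CPM under 5-FU (4.51 ± 0.758, adjusted p = 0.00578), and KRT19 had 0.99 ± 0.235 there (adjusted p = 0.0192, lost when 1 HCT116 library was left out). The keratin genes thus moved in the opposite direction to CD74 in SW620 cells, and the part of this shift in the class II values was not tested.

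Likeness to CD74 in log2 CPM over the 8 libraries was ranked among 12946 genes outside the class II set with a mean log2 CPM of at least 1. The genes most like CD74 were FAM161A (Pearson r = 0.978), LIMS2 (0.972), SPC24 (0.969), WDR76 (0.964) and POLD1 (0.962). The 8 points share lines and treatments, so these values describe likeness only and carry no test. SPC24, a kinetochore gene, had 41.5 and 29.2 CPM in SW620 cells under AFZC and 5.65 and 5.23 CPM under 5-FU, and 19.1 and 17.1 CPM in HCT116 cells under AFZC and 20.9 and 16.8 CPM under 5-FU. POLD1, the catalytic subunit of DNA polymerase delta, had 83.7 and 70.7 CPM in SW620 cells under AFZC and 41.9 and 44.6 CPM under 5-FU. CIITA and the other genes of the set were left out of this ranking, so it does not show how closely they follow CD74. The level of CIITA did not separate the treatments in SW620 cells, where that of CD74 did.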

How the data were processed

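Polyadenylated RNA of 8 libraries was sequenced without strand information, per the labels' protocols. The table deposited by the authors holds raw counts for each gene symbol, with columns as featureCounts writes them. Per the submitters' processing notes, reads were handled with tools that include HISAT2 and STAR for alignment on GRCh38, and featureCounts for counting; the aligner behind the counts and the treatment of shared reads are not given in the sources used. Positions of the 10 genes equalled those of GENCODE release 29.

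The 10 genes, the gene lists and the rule for naming genes were chosen with earlier results of these data known. The rule named all 10 genes, fixed pathway genes whatever their result, the 3 called genes with the largest change per list and contrast, and the 5 genes most like CD74; some genes that it names are not reported here, though the counts of called genes include them. Genes passed filterByExpr at a minimum count of 10, which left 21378, and TMM scaling. EdgeR 4.0.16 (R 4.3.3) fitted 4 group means to all 8 libraries with a robust quasi-likelihood model, which left 4 residual degrees of freedom, with two-sided tests, Benjamini-Hochberg adjustment over all genes and a threshold of 0.05. Standard errors were computed as the log2 fold change divided by the root of F. The common dispersion equals a coefficient of variation of 19.9%. Few counts are given as a ratio of pooled counts with a 95% Clopper-Pearson interval, and groups without counts as a bound that takes 3 pooled counts for the group. The bound leaves out the counting error of the other group. Genes at 2 counts outnumbered genes at 1 count by a ratio of 1.68 to 1.84 in the libraries, the pattern of mates counted separately, so intervals are too narrow. The 2 libraries of a group differed by more than sampling error (chi-square divided by its degrees of freedom, 20.9 to 51.5). Alternatives were DESeq2 1.42.0, other scalings and filters, a replicate block, fits of 2 groups alone and each library left out. The edgeR steps were tested on simulated counts. Promoters came from RefSeq (GRCh38.p14).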

Additional observations from a re-analysis of the deposited data

Results flagged for a closer look

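Each value below is the log2 fold change of AFZC over 5-FU in SW620 cells minus that in HCT116 cells, which stood out because the lines' treatment effects differed in the fitted model. For CD74 the difference was 5.80 and for HLA-DMB 2.14, both described without a test because the genes were chosen for this contrast. For HLA-DRA it was 7.77, a fitted value that rests on 0 counts in SW620 cells under 5-FU and is no bound.

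Among the other genes, adjusted p is that of edgeR's quasi-likelihood test of the difference over all genes. The leukocyte marker CD40 differed by 9.39 (adjusted p = 0.00711), a fitted value that rests on 0 counts in SW620 cells under 5-FU and is no bound; in HCT116 cells it had 25.1 and 21.2 CPM under AFZC and 32.7 and 29.2 CPM under 5-FU. The marker ITGAX, higher under AFZC in both lines, differed by 2.24 (adjusted p = 0.00452). The partner receptor CD44 differed by 2.20 (adjusted p = 0.00514) and the cathepsin gene CTSL by 1.11 (adjusted p = 0.0246). Among interferon and class I genes, GBP2 differed by 2.41 (adjusted p = 0.0410), PSMB9 by 1.99 (adjusted p = 0.0136), NLRC5 by 1.33 (adjusted p = 0.0149) and HLA-F by 1.24 (adjusted p = 0.0262), while TAP1 differed by -1.04 (adjusted p = 0.0105). RFXANK differed by 1.10 (adjusted p = 0.0284) and DNMT1 by 0.93 (adjusted p = 0.0266). The epithelial genes KRT8, KRT18, KRT19 and VIL1 differed by -2.76, -2.51, -2.45 and -5.12 (adjusted p = 0.000801, 0.000973, 0.000936 and 0.00450). The genes most like CD74 were picked on these libraries: WDR76 differed by 2.46, SPC24 by 2.76, FAM161A by 1.52, LIMS2 by 1.53 and POLD1 by 1.05. Leaving out 1 library ended several of these calls of a difference. Of 14 settings, GBP2, HLA-F and RFXANK were each called in 9, DNMT1 in 10, NLRC5, TAP1 and CTSL in 11, PSMB9 in 12, FAM161A in 13, LIMS2 in 6 and HLA-DMB in 7, with adjusted p up to 0.153 for GBP2 and 0.167 for LIMS2.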

How the results depend on the processing

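Counts of genes higher and lower under AFZC moved by over 1.5 times under the following settings. With library totals in place of TMM factors, SW620 had 5141 genes higher and 445 lower and 7 class II genes higher, and the difference between the lines had 2455 genes higher and 430 lower. With no filter on low counts, HCT116 had 1306 genes lower, SW620 had 5 class II genes higher, and the difference had 1848 genes higher. The cause was not tested.

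Leaving out 1 library at a time gave 1135 to 2703 genes higher, 448 to 1741 lower and 2 to 6 class II genes higher in SW620. HCT116 had 216 to 1509 genes higher, 89 to 1215 lower and 0 to 0 class II genes either way. The difference had 478 to 1521 higher, 279 to 1112 lower and 2 to 5 class II genes higher. SW620 over HCT116 had 4493 to 5299 higher and 4316 to 5144 lower under AFZC, with 1 to 4 class II genes higher and 4 to 5 lower, and 4384 to 5764 higher and 4528 to 6387 lower under 5-FU, with 1 to 1 and 5 to 6. The lowest treatment counts came without replicate 2 of SW620 under 5-FU (1135 and 448 in SW620) and without replicate 1 of HCT116 under 5-FU (216 and 89 in HCT116). Counts also fell by over 1.5 times in SW620 without its other 5-FU library or replicate 1 under AFZC, and in HCT116 without its other 5-FU library or replicate 1 under AFZC. An arm left with 1 library was taken to vary like the others.

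The replicate numbers do not pair the libraries (correlations of deviations -0.10 to 0.0952). With the replicate block, SW620 had 2271 genes higher and 1384 lower with 3 class II genes higher, and HCT116 had 1137 and 692. Of the class II fold changes under all alternatives, 618 kept their direction and side of the threshold, 18 lost a call, 14 gained 1 and 12 changed sign uncalled. Of those of the pathway genes, 2887 kept theirs, 179 lost a call, 55 gained 1 and 53 changed sign uncalled. No called fold change turned round. Depth limits HLA-DRB1, HLA-DPB1 and HLA-DQA1 in SW620 cells, with at most 9 pooled counts in a group.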
